A study of Mus musculus with 6 samples.

Results

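The newborn cerebellum of pups from dams on the diet with 2 mg of folic acid (FA) was measured on 2 of the 6 arrays of the study, 1 array for female and 1 array for male pups. These arrays were chosen by the dose in their labels, with no use of a measured value. In the study, C57BL/6J dams received an amino acid-based AIN-93G diet with FA at 2 mg/kg (the control diet) or 20 mg/kg of diet from the week before mating and through pregnancy, and RNA was taken from pups at postnatal day 1 (P1). The 2 mg groups of both sexes are the control groups, their background is given as C57BL/6, and they carry no transgene and no other treatment. Each array was hybridized with RNA pooled from 3 pups of 1 sex, each pup from a different dam, so that a value is the mean of 3 pups with an unknown spread. With 1 array a sex there is no replicate, and every difference between the arrays below is a description without a test, in which the sex of the pups, the pool and the array cannot be told apart. The titles and the paper name the tissue as cerebellum, whereas the tissue field of the sample labels reads whole brain.

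At birth the mouse cerebellum is still being built. Granule cell progenitors divide in the external layer under the meninges in response to Sonic hedgehog from Purkinje cells, while the first granule cells leave the cycle, extend axons and begin to move inward along the fibres of Bergmann glia. Purkinje cells are already born but have small dendrites, and the synapses, the mature granule cell receptors and most of the myelin of the adult cerebellum come later.

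Signal is given below as normalized log2 brightness, the female array first and the male array second. A probe that the scanner software called well above background on both arrays is called present, and a gene is present if 1 of its probes is. The value of a gene is that of its brightest present probe. Brightness depends on the sequence of a probe as well as on the amount of RNA, so the order of genes below is an order of signals and not of transcript numbers. Among the 4881 genes with 2 or more present probes, the probes of the same gene lay a median of 2.56 apart on the log2 scale, and 6.08 or more apart for 1 gene in 10 (percentile 90). In pooled tissue, fewer cells of a type and less RNA per cell cannot be told apart.

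The software called 63.6% of the 55681 probes well above background on the female array and 65.8% on the male array, and no spot was saturated. On the 4 arrays at 20 mg the share lay between 23.3% and 71.9%. Repeated spots of a probe on the same array had a median SD of 0.06 (female, 320 probes with at least 8 spots) and 0.07 (male, 314 probes) on the log2 scale, which measures the spotting and scanning error and not the spread between pups. Over the 34413 probes present on both arrays, the signals of the arrays correlated with Pearson r = 0.990 and Spearman rho = 0.987 across probes, which are not independent and share the design of the probes.

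Of 24098 genes with a symbol, 17680 genes (73.4%) were present on both arrays, 969 genes (4.02%) were above background on only 1 array, and 5449 genes (22.6%) were above background on neither. The genes present on both were split into a bright tier (the upper 25%), a middle and a dim tier (the lower 25%). The bright tier starts at a log2 signal of 12.45 and reaches 19.36, the dim tier lies below 8.06, and the median is 10.38. The bright tier holds 4420 genes, or 18.3% of all genes, and this share and the 73.4% present are the background against which each marker list below is read. Genes above background on neither array piled up near a log2 signal of 3, as the distribution of signals shows. Of the probes for a transcribed region that has no gene symbol, 44.9% were present, against 75.6% of the probes for RefSeq mRNAs.

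**Figure D1:**
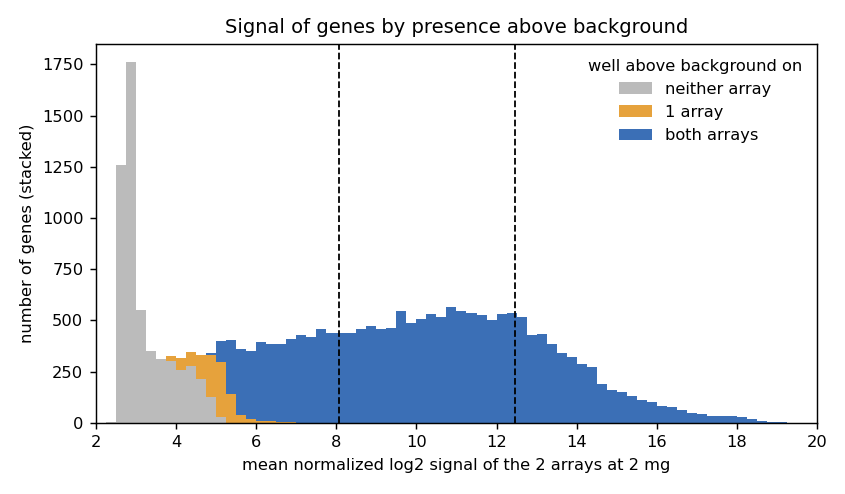
Number of genes (y axis, stacked) by mean normalized log2 signal of both arrays (x axis), coloured by whether the gene was well above background on both arrays, 1 array or neither. Dashed lines mark the borders of the dim and bright tiers at 8.06 and 12.45, and the 5449 genes on neither array form the peak at the left.

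All 5 genes used as cerebellar markers were present on both arrays. Fabp7, the fatty acid binding protein of radial and Bergmann glia, gave 17.68 and 17.91 and lay at percentile 99.5 of present genes (probe at chr10:57508039-57508098 of mm9). Zic1, a zinc finger factor of granule cell progenitors and their descendants, gave 16.70 and 16.33 (chr9:91255425-91255484), although its other probe averaged 9.72. Mki67, a protein of dividing cells, gave 12.12 and 12.49, at percentile 73.3 (chr7:142881591-142881650). Neurod1, a factor of granule neurons as they leave the cycle, gave 10.88 and 11.33, at percentile 59.0 (chr2:79293621-79293680). Calb1, the calcium-binding protein calbindin of Purkinje cells, gave 10.58 and 10.75, at percentile 53.5 (chr4:15835078-15835137). The glial marker and Zic1 were thus in the bright tier and the other markers in the middle. Which part of each transcript these probes cover is not given in the sources used here. Of the 145 genes of the marker lists that were present and had 2 or more probes, 42 genes had another probe more than 5 log2 units dimmer than the brightest one, which is the one reported. Among genes named below, the dimmest probe averaged 4.71 for Bcl11a, 4.63 for Rora, 8.28 for Nfib, 7.81 for Slc32a1, 6.78 for Camk4, 7.75 for Slc12a5, 9.36 for Camk2b and 2.81 for Camk2a. It averaged 8.69 for Dcx, 6.33 for Ptprz1, 5.67 for Mbp, 6.56 for Csf1r, 9.67 for Mat2a, 5.46 for Krt10, 4.37 for Wnt1 and 4.88 for Tbr1, and the levels of all these genes are uncertain.

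The promoters of 4 genes from different ends of the signal range are shown because they differ in a feature that the arrays did not measure, the number of CG dinucleotides (in capitals). They run from 250 bases before to 50 bases after the start of the gene, 5′ to 3′ on its own strand, in RefSeq build GRCm38.p6, which is not the build of the probe positions.
Zic1, bright, chr9:91365719-91366018, minus strand, 31 CG: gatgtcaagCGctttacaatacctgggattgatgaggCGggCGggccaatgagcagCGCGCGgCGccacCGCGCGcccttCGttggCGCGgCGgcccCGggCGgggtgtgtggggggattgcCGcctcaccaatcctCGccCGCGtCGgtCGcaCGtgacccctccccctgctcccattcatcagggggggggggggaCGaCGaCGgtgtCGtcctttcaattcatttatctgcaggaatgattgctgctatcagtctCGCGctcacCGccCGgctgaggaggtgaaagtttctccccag
Mki67, middle, chr7:135716330-135716629, minus strand, 32 CG: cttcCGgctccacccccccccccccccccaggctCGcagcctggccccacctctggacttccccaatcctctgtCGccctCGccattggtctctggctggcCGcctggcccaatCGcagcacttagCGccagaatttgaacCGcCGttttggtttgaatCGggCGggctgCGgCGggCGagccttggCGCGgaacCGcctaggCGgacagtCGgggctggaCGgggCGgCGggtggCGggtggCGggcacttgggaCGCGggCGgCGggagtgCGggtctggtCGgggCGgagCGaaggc
Fabp7, bright, chr10:57784673-57784972, plus strand, 6 CG: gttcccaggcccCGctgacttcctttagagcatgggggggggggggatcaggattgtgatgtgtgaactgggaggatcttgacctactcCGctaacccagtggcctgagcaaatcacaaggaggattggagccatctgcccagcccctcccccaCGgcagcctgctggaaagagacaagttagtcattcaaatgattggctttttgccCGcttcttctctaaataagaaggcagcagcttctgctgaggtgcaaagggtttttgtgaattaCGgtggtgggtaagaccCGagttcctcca
Alb, above background on neither array, chr5:90460620-90460919, plus strand, 3 CG: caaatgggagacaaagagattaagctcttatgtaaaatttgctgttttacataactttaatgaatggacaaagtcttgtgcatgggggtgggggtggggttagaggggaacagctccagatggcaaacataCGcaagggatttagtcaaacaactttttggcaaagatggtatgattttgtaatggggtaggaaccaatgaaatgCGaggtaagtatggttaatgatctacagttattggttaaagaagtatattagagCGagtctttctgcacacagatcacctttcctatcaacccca

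The brightest single genes were largely not named cerebellar genes. The 20 genes with the highest signal, from 18.54 upward, were Kctd14, Slc10a1, Glrx2, Rn4.5s, Elk1, COX1, Exosc2, Med16, Ttc38, Gm885, 1700047I17Rik2, Ppia, Tuba1a, Lilrb3, Rtn1, 2610028H24Rik, Stmn1, Actg1, Synrg and Ndor1. Of these, 15 genes had 2 or more probes, and for 13 genes another probe was more than 5 log2 units dimmer. Slc10a1, a bile acid transporter of the liver, gave 19.21 and 19.27 by its brightest probe while its other probe averaged 2.84. Lilrb3, an inhibitory receptor of white blood cells, gave 18.72 and 18.66 while its dimmest probe averaged 4.10. The brightest probe shared a run of 20 bases with a probe of another gene or unnamed region for 15 of the 20 genes, on either strand. That probe of Synrg shared such a run with 19 other genes or regions, of Lilrb3 with 17 and of Med16 with 14. A value of this kind belongs to the probe and cannot be read as the level of the named gene.

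Where all probes of a gene lay within 1 log2 unit of each other, a choice made after the values were seen, the brightest genes were housekeeping genes of protein synthesis and neuronal genes. Tuba1a, the alpha-tubulin of growing neurons, led with 18.70 on both arrays. It was followed by Tpt1 (18.39 and 18.39), Rpl37a (18.30 and 18.31), Rps12 (18.22 and 18.24) and Rpl10 (18.10 and 18.19). The first 20 genes of this kind also included Ubb, which encodes ubiquitin, Tmsb10, an actin-binding thymosin, Eef1a1, an elongation factor, Mapt, the axonal protein tau (17.62 and 17.55), and Calm2, a calmodulin. The probes of 12 of these 20 genes shared a run of 20 bases with a probe of another name, at most 4 of them for 1 gene. Of the 80 cytosolic ribosomal protein genes on the array, 77 genes were present and all 77 lay in the bright tier, with a median of 17.17.

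Genes of the cytoskeleton and adhesion of immature neurons formed the brightest of the lists of brain cell types. All 20 members were present and all 20 lay in the bright tier, against 18.3% of all genes, with a median at percentile 98.3 of present genes. With the median of a gene's probes in place of the brightest, 16 of the 20 were bright. The brightest were Tuba1a, then Stmn1 (18.60 and 18.60), which destabilizes microtubules, and Tubb2b (18.17 and 18.15), a beta-tubulin. Gap43, a protein of growth cones, gave 17.90 and 17.66. Dcx, the microtubule protein doublecortin of migrating neurons, gave 14.73 and 14.63. Dpysl3 gave 17.78 on both arrays by its brightest probe, and 5.49 by its dimmest.

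Cells of the granule lineage were represented from the dividing progenitor to the young neuron. All 17 genes of the progenitor list were present, with 3 genes in the bright tier, 13 in the middle and 1 in the dim tier. The bright share, 17.6%, was near the 18.3% of all genes. With the median of a gene's probes in place of the brightest, 6 of the 17 were bright, so this share depends on the choice of probe. After Zic1, the brightest were Meis1 (14.06 and 13.84) and Barhl1 (12.31 and 13.75), both homeobox factors. Atoh1, the factor that specifies granule cell progenitors, gave 9.07 and 9.51. Genes of the hedgehog pathway ran from dim to the middle range. Shh itself, the ligand made by Purkinje cells, was in the dim tier at 5.40 and 6.00. Its receptor Ptch1 gave 9.68 and 10.05, and the co-receptor Boc gave 9.58 and 10.27. The transcriptional effectors gave 11.11 and 11.53 (Gli1, with a second probe at 3.47) and 6.29 and 7.29 (Gli2). The targets Mycn (12.01 and 12.15), Ccnd1 (11.93 and 12.05) and Ccnd2 (11.26 and 11.76), which drive the cell cycle, were all above the median of present genes.

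All 12 genes of differentiating granule cells were present, 6 of them in the bright tier. The brightest were Cntn1 (16.07 and 16.19), an axonal adhesion molecule, Nfib (14.73 and 14.90), a factor of granule cell maturation, and Astn1 (14.65 and 14.40), which binds migrating neurons to glial fibres. Cntn2, the adhesion molecule of the first granule cell axons, was in the dim tier at 6.71 and 6.58. Genes of mature granule cells were mixed. Gabra6, the receptor subunit that defines adult granule cells, was at 2.85 on both arrays and above background on neither. Cbln3, a secreted partner of Cbln1, was at 3.01 and 2.73 and also on neither. Slc17a7, the vesicular glutamate transporter of mature parallel fibres, and Gabrd, an extrasynaptic receptor subunit, were dim at 5.99 and 5.53 and at 6.76 and 6.19. The bright members of this list, Snap25 (16.43 and 16.33), Kcnd2 (14.12 and 14.00) and Camk4 (13.64 and 13.38), are also used by other neurons. In all, 9 of its 11 genes were present.

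Purkinje cell genes were present throughout. All 13 early genes were present, with Bcl11a (14.02 and 13.80), Plcb4 (13.24 and 13.44) and Ebf1 (12.71 and 12.01) the brightest. Lhx1 and Lhx5, the homeobox pair of early Purkinje cells, gave 12.39 and 12.21 and 11.91 and 12.47, and Rora, the nuclear receptor needed for their maturation, gave 10.60 and 11.27. The dim members besides Shh included Skor2 (6.46 and 6.42). All 12 genes of later Purkinje cells were also present, and 4 of them were bright. Aldoc, the antigen of zebrin stripes, gave 17.38 and 17.03, Pcp4 gave 15.75 and 15.96 and Slc1a6, a glutamate transporter, gave 14.30 and 14.09. Aldoc is also made by astrocytes, and Pcp4 by other neurons. Pcp2, which is largely restricted to Purkinje cells in the brain, gave 13.06 and 12.97.

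All 11 genes of the list for inhibitory neurons and all 11 of the list for cerebellar nuclei and unipolar brush cells were called present, and 8 and 10 of them lay above the range of olfactory receptors described below. The brightest inhibitory genes were Slc32a1 (15.96 and 15.99), the transporter that loads GABA and glycine into vesicles, Tfap2b (13.74 and 14.59) and Gad1 (13.52 and 13.41), which makes GABA. The progenitor factors of this lineage, Ptf1a (7.52 and 7.41) and Pax2 (7.26 and 6.92), were dim. Among the excitatory genes the brightest were Slc17a6 (14.29 and 13.83), a vesicular glutamate transporter that is not particular to the nuclei, Meis2 (14.06 and 14.03) and Lhx2 (13.04 and 13.49). Eomes, a marker of unipolar brush cells, gave 10.37 and 10.77.

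Genes of dividing cells were widely present but no more often bright than other genes. All 28 genes of the cell division list were present, against 73.4% of all genes, with a median at percentile 57.1 of present genes. Of them 5 (17.9%) were bright, near the 18.3% of all genes, 21 were in the middle and 2 were dim. Without the female array, or with the positive-and-significant flag of the software, 8 were bright. The brightest were Pcna (14.09 and 14.37), the sliding clamp of DNA replication, Hmgb2 (14.03 and 14.25) and Mcm6 (13.44 and 13.67), part of the replicative helicase. The mitotic genes Cdk1 (10.10 and 10.49) and Aurka (10.38 and 10.44) lay next to the median. The dim members were Aurkb (6.69 and 6.86) and Kif11 (7.53 and 7.57).

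Synaptic genes were present although few synapses have formed at this age. All 33 genes were present, and 13 were bright. The brightest were Cplx2 (17.18 and 17.62), a regulator of vesicle release, Slc12a5 (15.94 and 15.88), the chloride exporter that makes GABA inhibitory, and Camk2b (15.89 and 15.77), a calcium-dependent kinase. Camk2a, the form of that kinase that rises late in the forebrain, gave 8.27 and 7.95. Slc12a2, the chloride importer of young neurons, gave 12.69 and 12.64. The glutamate receptor subunit Grin2b gave 10.77 and 10.63, and its later counterpart Grin2a was dim at 8.01 and 7.91. Nrgn, a calmodulin-binding protein, stood at the median of all present genes with 10.35 and 10.46.

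Glia were marked by all 20 genes of the list for radial glia, Bergmann glia and astrocytes, 7 of them bright. After Fabp7 the brightest were Vim (14.82 and 15.10), an intermediate filament protein, and Ptprz1 (14.65 and 14.67), a receptor phosphatase. Slc1a3, the glutamate transporter of Bergmann glia, gave 14.37 and 14.24. Of 9 genes of oligodendrocyte progenitors 8 were present, led by Olig1 (13.24 and 12.92), Gpr17 (13.21 and 12.86) and Pdgfra (12.69 and 12.37), while Enpp6, which marks the first step of differentiation, was above background on neither at 5.04 and 4.43. Of 13 myelin genes 11 were present. Ermn led with 16.78 and 16.73, but its other probe averaged 8.00. Mbp, a main protein of myelin, gave 12.62 and 12.52. Opalin (2.59 and 2.57) and Myrf (2.66 and 2.66; named Gm98 in the array design), the factor that switches on myelin genes, were above background on neither, and Mobp was dim at 6.67 and 6.40.

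Blood vessels, immune cells and coverings of the tissue were present as well. Of 15 microglial genes 14 were present. Itgam led with 16.44 and 16.45, although its dimmest probe averaged 6.87, and was followed by Csf1r (12.81 and 12.73), the receptor for the growth factors of these cells. Aif1 (10.30 and 10.40) and Trem2 (10.43 and 10.15) lay next to the median. Spi1, the factor of the myeloid lineage (Sfpi1 in the array design), was at 2.76 and 2.78 and above background on neither. All 15 endothelial genes were called present, and 10 of them lay above the range of olfactory receptors described below. They were led by Slc2a1 (14.02 and 13.79), the glucose transporter of the blood-brain barrier, Kdr (13.51 and 13.05) and Cldn5 (12.81 and 12.93), the tight junction protein. Of 8 genes of pericytes and smooth muscle 7 were present, led by Tagln (14.13 and 13.89), Pdgfrb (10.76 and 10.48) and Anpep (10.38 and 10.24), and Myh11 was above background on neither at 3.61 and 4.14. All 15 meningeal genes were present, led by Ptgds (17.05 and 16.71), Col1a2 (14.36 and 14.43) and Dcn (13.39 and 13.64).

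The choroid plexus lies in the ventricle beside the cerebellum. All 14 genes of its list were called present, and 9 of them lay above the range of olfactory receptors described below. The brightest were Ttr, Enpp2 (13.37 and 13.63) and Otx2 (12.79 and 13.83). All 8 genes of ciliated ependyma were present and none was bright. Its brightest were Dynlrb2 (10.50 and 10.88), Tekt1 (10.21 and 10.94) and Foxj1 (9.49 and 10.32), the factor for motile cilia. Haemoglobin was among the brightest of all signals. Hba-a2 gave 18.47 and 18.23, Hba-a1 gave 17.05 and 16.93, and Hbb-b1 gave 16.12 and 15.83. The globin genes include near-identical copies whose RNA can bind each other's probes, so the level of a single copy is uncertain. The embryonic globins were dim (Hbb-bh1, with a mean of 7.13, and Hbb-y, 6.64 and 6.26) or above background on neither (Hba-x, 2.92 and 2.89). Epb4.2 (2.74 and 2.77), of the red cell membrane, was also on neither, and 11 of 16 red cell genes were present.

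Dietary FA enters the cell through carriers and a receptor and then feeds the synthesis of nucleotides and the methylation of DNA. Of 26 genes of this pathway 25 were present, and 4 were bright. The brightest were Mat2a (15.27 and 15.29), which makes the methyl donor S-adenosylmethionine outside the liver, Dnmt3a (14.33 and 14.40), a methyltransferase for new DNA methylation, and Ggh (12.96 and 13.14), which trims folate chains. Of the carriers, Slc19a1 gave 11.90 and 11.69, Slc46a1 gave 11.08 and 10.89, and the receptor Folr1 gave 8.45 and 9.62. Mtr, which passes the methyl group to homocysteine, lay near the median at 10.75 and 10.80. Mat1a, the liver form of Mat2a, was above background on neither at 3.71 and 2.95. Dnmt1, which copies DNA methylation at replication, gave 10.97 and 10.77, and Dnmt3b gave 9.99 and 10.29. Of 13 immediate early genes, which neurons switch on with activity or handling, 11 were present, with Jun (13.53 and 13.37), Nr4a1 (12.29 and 11.90) and Egr1 (11.37 and 10.96) the brightest and Junb (4.03 and 3.04) and Ier2 (3.66 and 3.09) on neither.

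**Figure D2:**
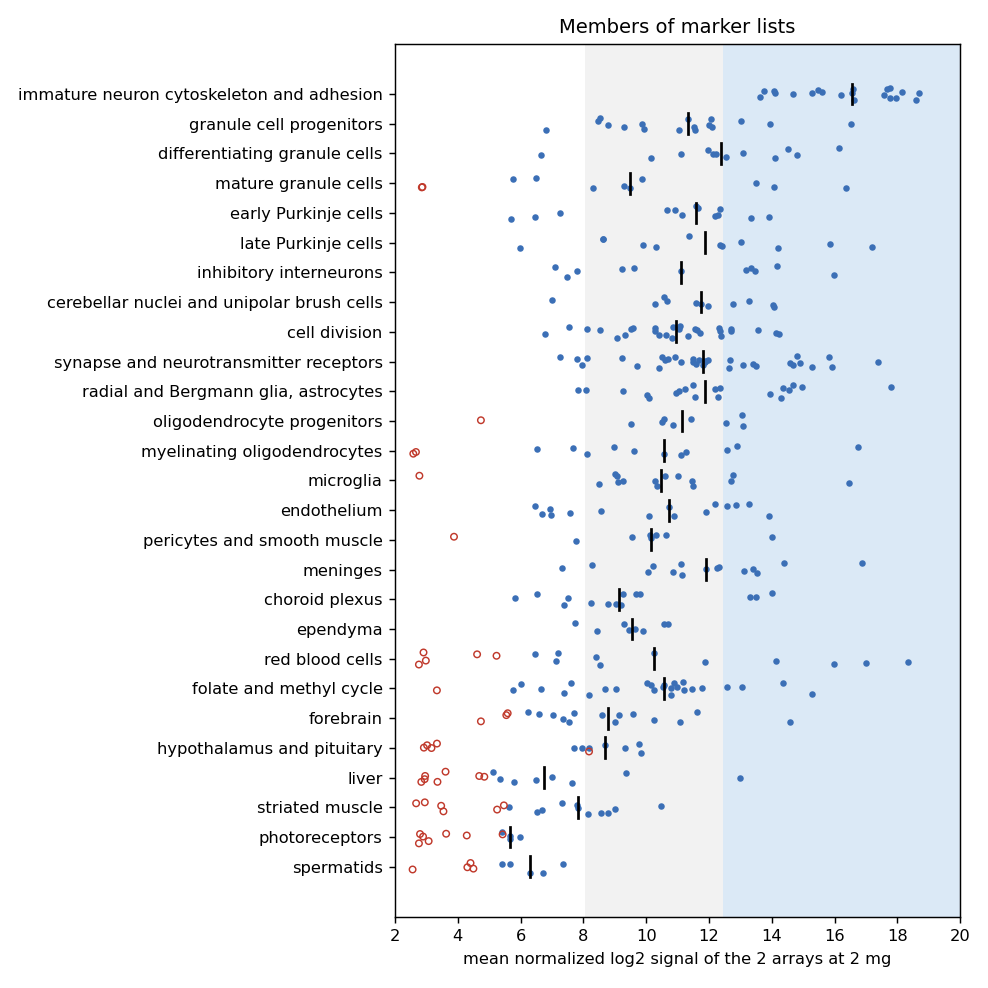
Mean normalized log2 signal of both arrays (x axis) for each member of 27 marker lists (rows), with filled points for genes present on both arrays, open points for others and a bar at the median of the present members. Grey marks the middle range and blue the bright tier, which holds all 20 genes of the immature neuron list and none of the ependyma, photoreceptor or spermatid genes.

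Genes of organs far from the brain show what a present call is worth. Of 1076 olfactory receptor genes, which the cerebellum is not known to use, 156 genes (14.5%) were called present, with a median of 6.32 and a 90th percentile of 8.43. Above the latter value lay 52.3% of all genes. Of 253 vomeronasal receptors 40 were present, and of 35 bitter taste receptors 5 were. Without the female array the last counts were 61 and 8, and with the positive-and-significant flag the counts were 331, 100 and 9. A call in the range up to this 90th percentile therefore does not separate a gene in use from one that is not. That range takes in the whole dim tier and the lower end of the middle tier. Of the 156 olfactory receptors, 22 lay in the middle tier, the brightest at 12.39. Above this 90th percentile lay 16 of 17 genes of granule cell progenitors, 25 of 28 of cell division and 14 of 15 of microglia, but 0 of 11 genes of photoreceptors and 0 of 9 of spermatids. Between these were 10 of 13 early Purkinje genes, 10 of 15 of endothelium, 9 of 14 of choroid plexus and 7 of 16 of red cells. The photoreceptor genes Pde6b (3.83 and 4.73) and Opn1sw (2.77 and 2.74) were above background on neither, and the brightest, Gnat2, gave 5.77 and 6.16. Of the spermatid genes, Tnp2 (4.63 and 4.35), Odf1 (2.56 and 2.55) and Ldhc (4.69 and 4.11) were on neither, while Prm1 gave 8.10 and 6.57. By the same measure Shh, Gli2, Slc17a7, Cntn2, Gabrd and Mobp, among others, fell within the range of the receptors. So did Skor2, Ptf1a, Pax2, Aurkb, Kif11, Grin2a and Camk2a. Among genes compared between the pools below, the means of Avp, Oxt, Agrp, Hoxc6, Hoxa7, Dlx1, Tph2, Slc4a5, Kcne2 and En1 also lay in that range. The same held for Ildr1, Usp43, Hoxa6, Hoxa9, Emx1, Emx2, Olig3 and Syt2, among others.

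The liver list had 8 of 15 genes present and 2 above the range of olfactory receptors. Alb (2.85 and 3.06), Apoa1 (2.94 and 2.94) and Fgb (2.74 and 2.92), whose RNAs are among the main products of liver, were above background on neither. The members above that range were Apoa2 (13.10 and 12.87, with another probe at 8.89) and Tat (9.31 and 9.38). In striated muscle 11 of 17 genes were present and 4 were above the range, with Myh7 (10.36 and 10.57), Nppa (9.19 and 8.83) and Tnni2 (9.17 and 8.40) the brightest and Ckm (2.92 and 2.97), Mb (3.37 and 3.70) and Mylpf (2.68 and 2.66) on neither. In the pancreas list 6 of 9 genes were present and 1 was above the range, Ins2 at 9.57 and 9.37, with Ctrb1 (8.20 and 7.99) and Gcg (7.31 and 5.89) next and Prss1, Cela1 and Iapp on neither. In the list of skin keratinocytes 6 of 10 were present and 4 above the range, with Lor (12.71 and 12.35), Sbsn (11.78 and 11.76) and Krt10 (11.06 and 11.19) the brightest and Ivl, Flg and Dsg3 on neither.

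Promoter sequence differed along the same axis. Among genes with a RefSeq mRNA probe, 81.5% of the bright genes and 81.0% of those on neither array had a promoter in the table, and coverage of the middle and dim tiers was under 80%, so no value is given for them. A ratio of observed to expected CG of at least 0.6 was found for 78.3% of the promoters of bright genes, for 8.21% of those of genes on neither array and for 36.5% of all 27025 promoters of that length. Of the 2935 promoters of genes on neither array, 881 belong to olfactory or vomeronasal receptors. The median number of CG was 22 in the bright set and 2 in the set on neither array. The motif GGGCGG, searched on both strands, was in 66.9% of bright promoters, in 14.1% of those on neither array and in 35.9% of all. The motif TATAAA was in 7.48%, 27.1% and 14.2%, and CCAAT in 37.9%, 40.3% and 37.9%, in the same order. None of the 3 motifs contains another. In the cell division list, where 24 of 28 genes had a promoter, CCAAT was in 87.5% and GGGCGG in 91.7%, and TATAAA in 0 of 24. The 15 liver promoters had a high CG ratio in 0 cases, and Fabp7 above shows that a bright gene can also have few CG. A match is a description of the letters and not a site of binding.

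Between the female and the male pool, most bright genes had nearly the same signal. The median absolute difference was 0.15 in the bright tier, 0.20 in the middle and 0.27 in the dim tier (log2). A difference of 2.5-fold or more, the rule used by the study, was met by 9 genes (0.204%) of the bright, 63 genes (0.713%) of the middle and 104 genes (2.35%) of the dim tier. Among 18649 genes above background on at least 1 array, 292 genes (1.57%) were higher in the female pool and 265 genes (1.42%) in the male pool. By probe, 697 probes (1.85%) were higher in the female and 800 probes (2.13%) in the male pool. Where the dimmer array was below background the measured difference was counted, although only a bound is known there.

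The sex-linked genes matched the labels of both pools. Xist, the RNA that silences an X chromosome in female cells, gave 10.95 in the female pool and 2.72, below background, in the male pool, at least 75-fold higher. The Y-linked genes Eif2s3y (2.66 and 13.08), Ddx3y (2.83 and 11.73), Uty (2.80 and 7.02) and Kdm5d (2.66 and 5.52) were below background in the female pool and above in the male pool. They were at least 278-fold, 109-fold, 4.18-fold and 1.48-fold higher in the male pool, where the bound sets the male signal against the lowest signal above background on the female array. Sry, the testis-determining gene, was called present in both pools at 5.17 and 4.93, next to the lowest signals above background, and Zfy1 (3.11 and 2.95), Zfy2 (2.92 and 2.87) and Usp9y (3.52 and 2.95) were on neither. Of the X-linked partners, Ddx3x gave 14.55 and 14.45, Kdm5c 12.53 and 11.97 and Kdm6a 8.85 and 8.49. Eif2s3x gave 9.61 and 11.74, but it is a near copy of Eif2s3y and its probes lay far apart, so its value is uncertain.

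The genes past 2.5-fold included genes that mark positions along the brain. Hox genes, which pattern the hindbrain and spinal cord behind the cerebellum in order of their paralogue groups, were higher in the female pool. In the list of groups 1 to 5, 13 of 15 genes were present and all 13 were past 2.5-fold, where 1.57% of all genes were. The lists were chosen with earlier results of these data known, so this count and those of the lists below are descriptions without a test. Hoxc4 gave 13.94 and 10.68, Hoxb5 gave 13.80 and 11.28 and Hoxa5 gave 13.16 and 10.48. Hoxb1 (3.16 and 2.81) and Hoxd1 (5.12 and 2.76) were above background on neither.

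Genes of groups 6 to 8, added after the values were seen, were also higher in the female pool. Over groups 4 to 8, 13 of 15 genes were present and all 13 were past 2.5-fold, with a median difference of 2.68 (log2) against 1.77 for the 6 present genes of groups 1 to 3. Hoxc6 gave 10.25 and 5.43, Hoxa7 gave 9.87 and 5.34, Hoxb7 gave 11.85 and 7.65 and Hoxb8 gave 12.11 and 8.29. The gaps were smaller for Hoxb6 (12.03 and 9.73) and Hoxa6 (6.86 and 5.25). Behind these the signal ended. Of 16 genes of groups 9 to 13 only Hoxa9 was present on both arrays (6.39 and 6.42). Hoxb9 (5.81 and 2.78, at least 2.12-fold higher) and Hoxa10 (5.43 and 2.74, at least 1.63-fold higher) were above background in the female pool only, and Hoxc10 (4.41 and 5.56) in the male pool only. The remaining 12 genes, among them Hoxa11, Hoxa13 and Hoxb13, were on neither. Genes of the first 8 groups were thus called present in both pools, and all 19 present genes of these groups were higher in the female pool. In the male pool several of them, including every present gene of groups 7 and 8, lay below 8.43. This is the 90th percentile of present olfactory receptors, below which a call does not separate a gene in use from one that is not.

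**Figure D3:**
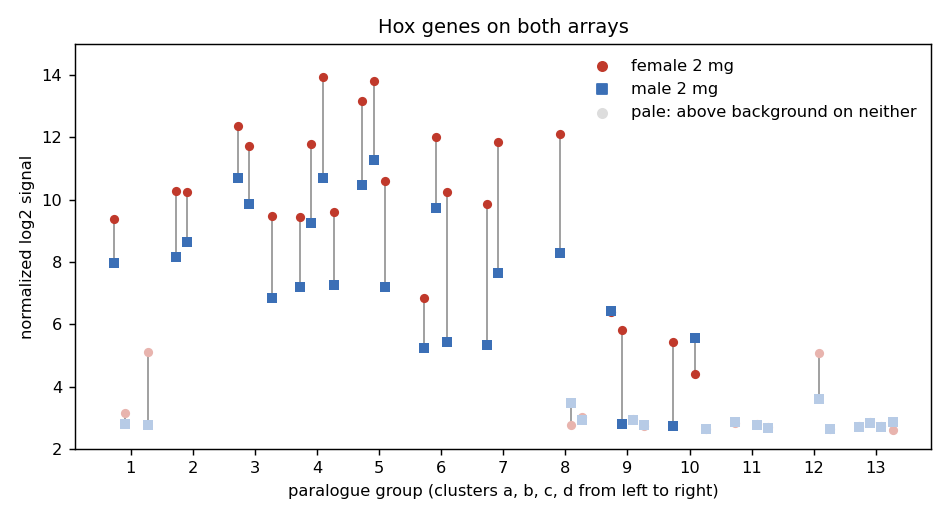
Normalized log2 signal (y axis) of each Hox gene in the female pool (circles) and the male pool (squares) by paralogue group (x axis), with pale symbols for genes above background on neither array. Every present gene of groups 1 to 8 lies higher in the female pool, and 12 of the 16 genes of groups 9 to 13 are pale.

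Forebrain and hypothalamic genes were also higher in the female pool. Of 17 forebrain genes 14 were present on both arrays and 2 on 1 array. Of these 16, 8 were past 2.5-fold, all higher in the female pool, against 1.57% of all genes. Dlx2 and Dlx1, factors of inhibitory forebrain neurons, gave 10.06 and 7.12 and 8.73 and 5.34. Fezf2, a factor of deep cortical neurons, gave 8.02 and 3.07, at least 9.83-fold higher, and Nkx2-1, of the ventral forebrain, gave 8.40 and 2.77, at least 12.8-fold higher. Emx1, of the cortex, gave 7.20 and 5.25. Bright signals of the list included Lhx6 (14.74 and 14.43, with its dimmest probe at 2.61), Neurod6 gave 11.55 and 10.62, and Dlx6 (4.81 and 4.66) was on neither. Emx2, at 7.17 and 8.24, ran the other way within 2.5-fold.

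Of 12 genes of hypothalamus and pituitary 8 were above background on at least 1 array. Of the 8, 6 were past 2.5-fold higher in the female pool, against 1.57% of all genes. The neuropeptide genes Avp (10.59 and 5.78), Oxt (9.45 and 6.43), Hcrt (10.85 and 8.67), Trh (10.67 and 8.97) and Agrp (8.66 and 6.73) were called present in both pools. In the male pool Avp, Oxt and Agrp lay within the range of the olfactory receptors. Pmch, for melanin-concentrating hormone, gave 11.68 in the female pool and 4.68, below background, in the male pool, at least 124-fold higher (chr10:87555031-87555090). Ghrh (9.20 and 8.20) and Pomc (9.54 and 9.11) differed by less than 2.5-fold. The pituitary genes Gh (3.60 and 2.72), Prl (2.88 and 3.15), Pou1f1 (2.58 and 4.08) and Cga (2.70 and 3.12) were above background on neither.

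Other position markers ran in both directions. En2, a homeobox gene of the cerebellar territory and midbrain, gave 11.85 and 13.48 and was past 2.5-fold higher in the male pool, while En1 gave 6.01 and 7.27. Gbx2 (10.34 and 8.57) and Pax8 (9.68 and 7.65) were past 2.5-fold higher in the female pool. Wnt1 (11.10 and 10.79) was nearly equal, and Fgf17 (2.85 and 2.83) was on neither. All 12 genes of monoamine and cholinergic neurons of the brainstem were present, with Ddc (11.51 and 12.59) and Th (11.54 and 11.72) among the brightest. The serotonin genes Tph2 (5.18 and 7.59) and Slc6a4 (8.88 and 10.87) were past 2.5-fold higher in the male pool, although with normexp background correction the difference of Tph2 (female minus male) was -1.28 (log2), within 2.5-fold. Dbh, of noradrenergic neurons, was nearly equal at 11.35 and 11.36.

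The choroid plexus list was split. Ttr, the thyroxine carrier that the plexus secretes, gave 12.46 and 15.53, and Clic6 (8.47 and 10.05), Aqp1 (8.49 and 9.92) and Kcne2 (7.27 and 9.22) were also past 2.5-fold higher in the male pool. These were 4 of the 14 genes of the list, against 1.42% of all genes. Slc4a5, a bicarbonate transporter, gave 9.70 and 5.33 and was past 2.5-fold in the other direction. With 1 pool a sex, how much neighbouring tissue each pool held was not measured, and its part in the differences was not tested.

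The lists of cerebellar neurons differed less. Their median differences (female minus male, log2) ran from -0.40 for cerebellar nuclei and unipolar brush cells to 0.21 for late Purkinje cells. None of the 12 differentiating granule cell genes, 13 early and 12 late Purkinje genes, 28 cell division genes and 20 immature neuron genes was past 2.5-fold in either direction. Of the 17 genes of granule cell progenitors, Barhl1 alone was, at 12.31 and 13.75, and the median difference (female minus male) was -0.27. Of the 28 cell division genes the median difference was -0.21, and the median over probes above background on at least 1 array was -0.002. Past 2.5-fold and higher in the female pool were Slc6a5 (12.04 and 10.19), the glycine transporter of inhibitory neurons, Tbr1 (11.17 and 9.36) and Olig3 (7.72 and 6.28) of the nuclear list, Gfap (10.32 and 8.23) of the glial list and Syt2 (8.89 and 6.70) of the synaptic list. Slc6a5, Gfap and Syt2 are also expressed in the brainstem, and Tbr1 in the cortex. Whether tissue of these regions contributed to the differences was not tested.

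**Figure D4:**
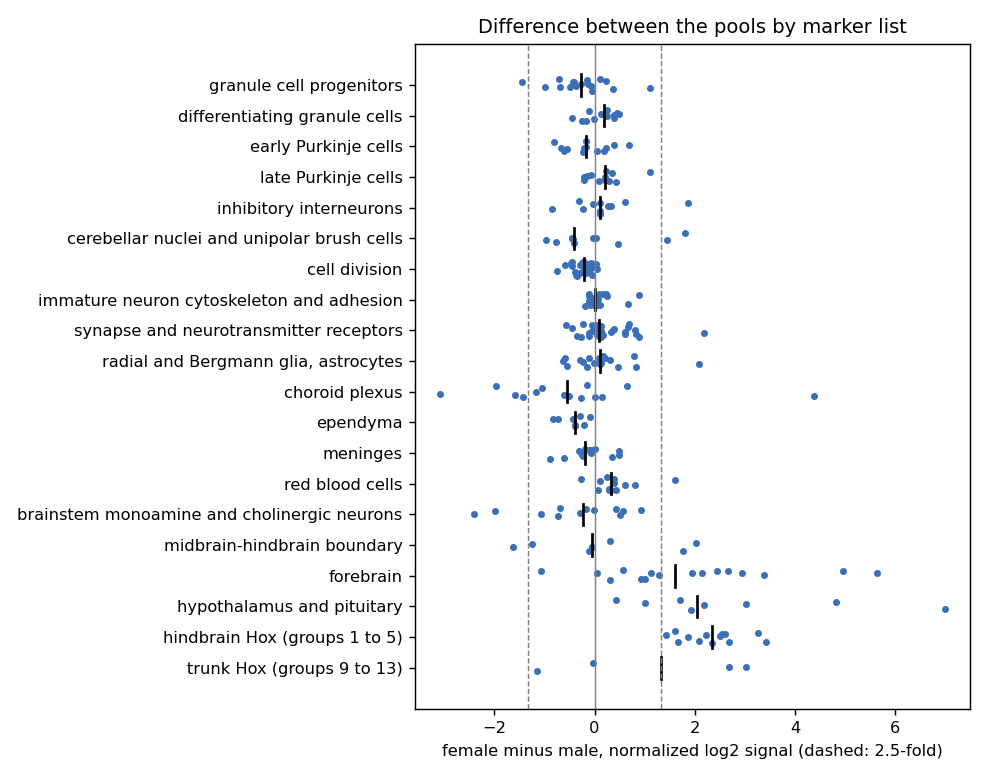
Female minus male normalized log2 signal (x axis) for each member above background on at least 1 array, by marker list (rows), with a bar at the median of the list and dashed lines at 2.5-fold. The medians of the lists of cerebellar neurons run from -0.40 (cerebellar nuclei and unipolar brush cells) to 0.21 (late Purkinje cells). Those of forebrain, hypothalamus and Hox groups 1 to 5 are 1.61, 2.05 and 2.35.

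Of all genes present in both pools, the 5 that were higher in the female pool by the widest margin were Lrrc42 (17.39 and 8.06, chr4:106911696-106911755), Hoxc6, Avp, Hoxa7 and Slc4a5. Lrrc42 stood apart, with a gap of 9.34 on the log2 scale from a single probe. The 5 higher in the male pool by the widest margin were Lmod2 (7.17 and 10.45), an actin-binding protein of muscle, Ttr, Ildr1 (6.23 and 9.02), Usp43 (5.81 and 8.51) and Tph2. Of these 10 genes, 6 are Hox, hypothalamic, choroid plexus or serotonin genes described above.

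**Figure D5:**
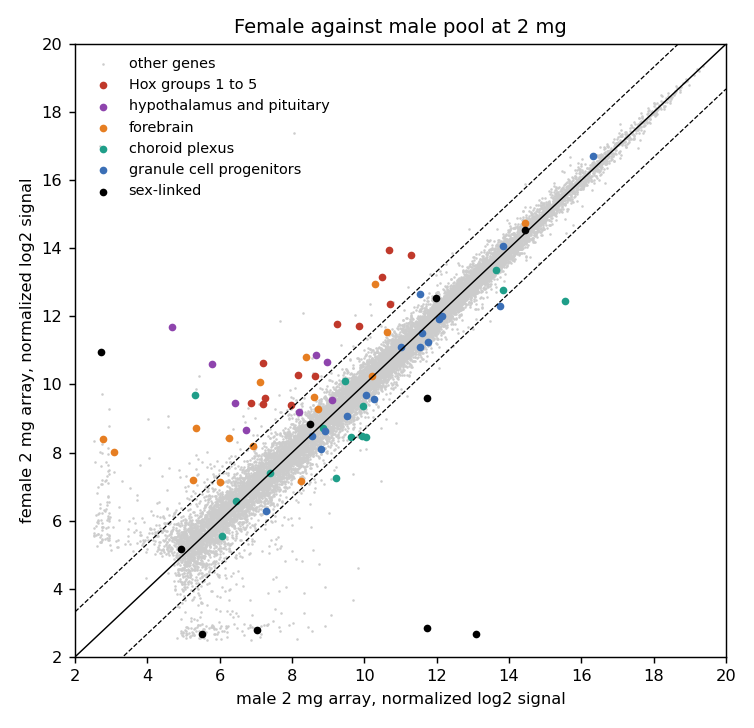
Normalized log2 signal of each gene above background on at least 1 array in the male pool (x axis) and female pool (y axis), with the line of equality and dashed lines at 2.5-fold. Granule cell progenitor genes other than Barhl1 lie between the dashed lines, 13 Hox genes of groups 1 to 5 (coloured), 8 forebrain and 6 hypothalamic genes lie above them and 4 choroid plexus genes below them, and the grey point at 17.39 (female) and 8.06 (male) is Lrrc42.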

How the data were processed

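RNA was labelled with cyanine-3 and hybridized to single-colour Agilent mouse arrays, and the authors made the deposited intensity values with Agilent Feature Extraction 10.7.3.1, which subtracts background, fits the trend over the slide and does not scale between arrays. The authors' deposited value table holds log2 values, quantile normalized over the 6 arrays with a floor in BRB-ArrayTools 4.3.1, and was used as an alternative only. Its scale and direction followed the scanner values (Spearman rho 0.993 female and 0.995 male over 55669 probes), and the median is 6.49 in both columns.

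Here, outlier spots (0.187% female, 0.228% male) were left out, the log2 processed signals of a probe were averaged, and the 2 mg arrays were quantile normalized with Python 3.11.15, pandas 2.3.3 and numpy 2.4.6. Both lie on 1 slide and were scanned together. A probe was above background where over 50% of its spots were. Only a fold threshold of 2.5 was used, with no test, since each sex has 1 array. For a gene below background on 1 array, the bound uses the lowest signal above background on that array (4.96 female, 4.72 male). The scripts were tested on simulated data. The number of arrays limits the precision.

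The text names the 20 brightest genes, 10 list genes nearest the median, the 3 brightest and up to 3 undetected members of each list, the 5 markers, the sex-linked list and the 5 widest differences each way. Further list members were named after their values were seen. Some genes that this rule names are not reported here. The members and the 39 lists were chosen with earlier results of these data known. Alternatives were the outlier spots, another detection flag, each array alone, normexp correction (limma 3.58.1), a shift to the 75th percentile, the deposited table, a linear mean of spots, the median probe and other thresholds. Of 22765 RefSeq accessions, 21465 (94.3%) were found in a RefSeq table used for names. The file names 504 list genes, 4 of them through an accession. Positions are those of probes in mm9. Promoters were matched by symbol for 17255 of 24098 genes (71.6%), the first listed start of each. No column of a sample outside the study was used (0 columns).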

Additional observations from a re-analysis of the deposited data

How the results depend on the processing

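No paired analysis was possible because each sex has 1 array at 2 mg and the labels give these arrays no replicate number. The number of present probes, 34413, was 34421 with outlier spots kept and 42648 with the positive-and-significant flag, and 35402 to 36608 with either array alone. The 26 of 39 lists with a larger share of present genes than all genes became 26 to 29. Of the 20 brightest genes, 6 were among the brightest with the median of a gene's probes, since that rule sets aside single bright probes, and 16 to 20 under the other settings. Probes past the fold threshold, 1497 in all (697 female and 800 male higher), were 356 (188 and 168) with normexp, whose offset shrinks dim differences, 370 (219 and 151) among probes above background on both arrays, and 2512 (1229 and 1283) over all probes. Under normexp, the percentile shift, the deposited table, outlier spots kept and the linear mean, the 13 Hox genes of groups 1 to 5 past the threshold became 11 to 13, the 8 forebrain genes 7 to 9, the 6 hypothalamic genes stayed 6, and the 19 Hox genes of groups 1 to 8, a count added after the data were seen, became 16 to 19. The 4 choroid plexus genes higher in the male pool became 3 with normexp and 2 with the deposited table. Of the genes with the widest margins (female minus male, log2), with normexp and with the deposited table in that order, Hoxc6 went from 4.82 to 3.47 and 3.66, Avp from 4.81 to 3.64 and 3.67, Hoxa7 from 4.53 to 3.24 and 3.40 and Slc4a5 from 4.37 to 2.62 and 3.24. With normexp Ildr1 was at -1.91, Usp43 at -1.65 and Tph2 at -1.28, and with the deposited table Lmod2 was at -2.59. All kept their direction. Dimness limits the dim tier, where signals overlap those of olfactory receptors, and single arrays give no spread between pools.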
